A study of Homo sapiens with 3 samples.

Results

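Scavenger and endocytic receptors let macrophages take up lipoproteins, haemoglobin complexes, bacterial products and dying cells, and 10 of them were followed here in the human THP-1 line. They were CD163, MRC1, MSR1, CD36, MARCO, CD14, OLR1, STAB1, SCARB1 and MERTK, chosen by name, and they were read from every transcript probe that the array design gives one of these names. This gave 13 probes of the 58201 transcript probes and 10 of the 41810 named genes on the array. THP-1 is an established monocytic leukemia line, and the labels state that the cells were turned into macrophages with 100 ng/ml of phorbol myristate acetate (PMA) for 24 to 36 h. All 3 groups share that step. The Ctrl cells were labelled as normal THP-1 cells, the IMQ cells received imiquimod (IMQ), a TLR7 agonist, and the IMQ+DMD cells received DMD before and IMQ after it. DMD is a benzenediol that carries methoxy groups and a methyl group. The labels call the third group IMQ+X, and it was read as IMQ+DMD because DMD is the only other compound in the treatment text. Each group is labelled 4 h with no dose, the methods describe a longer IMQ exposure in general, and DMD without IMQ was not analysed here. One RNA sample per group was hybridized to 1 one-color array, so no difference below has a replicate check and none has a p-value.

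These receptors divide by what they bind. CD163 clears haptoglobin-haemoglobin complexes, and MRC1, the mannose receptor, binds glycans on microbes and on endogenous glycoproteins. MSR1, CD36, MARCO, OLR1 (LOX-1), STAB1 and SCARB1 (SR-BI) bind modified lipoproteins, lipids or bacterial ligands, CD14 hands lipopolysaccharide to TLR4, and MERTK is a receptor tyrosine kinase for the uptake of apoptotic cells. Several of them mark macrophages that clear material without strong inflammation, and OLR1 is known as a receptor that inflammatory stimuli can induce.

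All values below are intensities that the authors quantile normalized between the arrays, and a difference is the log2 value of 1 array minus that of another. A difference of at least 2-fold (1 log2 unit) is called. The only error that could be measured was that within an array, taken as the standard deviation (SD) between repeated spots of 300 other probes of like brightness, and it is given as the spot SD of a difference. It leaves out the variation between cultures, labelings and arrays. In Ctrl 72.0% of transcript probes exceeded the background clearly, in IMQ 66.6% and in IMQ+DMD 71.9%, and no spot was saturated. The macrophage identity was checked with 10 markers, of which 8 were on the array by name, and all 8 were well above background on the 3 arrays, with a summed intensity of 668781 in Ctrl, 562096 in IMQ and 549711 in IMQ+DMD. TYROBP, an adaptor of myeloid receptors, read 237219, 223150 and 227349 on these arrays. After IMQ 6 of the 8 markers were lower and 2 higher, with a median log2 difference of -0.25. Named after their values were seen, CD33 differed by -0.83 and AIF1 by -0.73 (-0.23 on its other probe), as much as many of the receptors below, and ITGAX by 0.44. Markers of other cells were not absent, and the part of either kind of marker in the results was not tested. The 5 T cell markers were all above background and summed to 1026, 1073 and 1164, with LCK at 315, 450 and 442. The 4 B cell markers, also all above background, summed to 4736, 3842 and 4571, with CD79A at 4148, 3424 and 4011. Of 5 keratinocyte markers, 3 to 4 were above background, and all 5 summed to 18889, 17833 and 18237, nearly all of it KRT10 (18750, 17724 and 18069), with TP63 not well above background. KRT5 read 39.9 in Ctrl and 51.4 in IMQ+DMD and was not well above background in IMQ. With IMQ set to the lowest value of probes above background, it was 2.16-fold higher in IMQ+DMD (log2 difference 1.11, spot SD 0.52). Other scaling, filters or background correction gave log2 differences from 0.44 to 1.69. Of 5 fibroblast markers, 3 were above background, and all 5 summed to 237, 236 and 251, with DCN at 112, 86.3 and 120 and with COL1A2 and COL3A1 not well above background. Of 4 endothelial markers, 3 to 4 were above background, and all 4 summed to 827, 803 and 776, with VWF at 404, 353 and 343.

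Of the 10 receptor genes, 9 have 1 probe and MSR1 has 4. Every receptor gene had a probe well above background on all 3 arrays, and 12 of the 13 probes did. The 60-base probes of CD36, MARCO and STAB1 are shown because they lie in coding sequence, so the letters are those of the measured receptor itself. The CD36 probe maps to chr7:80302711-80303343 of hg19 on the plus strand, a span of 633 bases that includes an intron. The MARCO probe maps to chr2:119751977-119752036 and the STAB1 probe to chr3:52557683-52557742, both on the plus strand and within 60 bases.
CD36: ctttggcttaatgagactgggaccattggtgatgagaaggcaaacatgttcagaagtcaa
MARCO: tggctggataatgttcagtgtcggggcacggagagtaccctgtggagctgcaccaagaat
STAB1: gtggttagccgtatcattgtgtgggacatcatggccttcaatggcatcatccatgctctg
The other probes map in hg19 to chr12:7623882-7623941 (CD163, minus strand), chr10:18199506-18199565 (MRC1, plus), chr5:140011318-140011377 (CD14, minus), chr12:10311598-10311657 (OLR1, minus), chr12:125262225-125262284 (SCARB1, minus) and chr2:112786885-112786944 (MERTK, plus).

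After IMQ, 9 of the 10 receptors were lower than in Ctrl and 1, OLR1, was higher. Their median log2 difference was -0.59, beside -0.02 over the 30854 named genes compared, of which 52.4% were below 0. At 2-fold, 1 receptor was higher (OLR1) and 1 lower (CD163), where 4.18% of all named genes were higher and 3.64% lower. All 10 differences were larger than 2 spot SDs, but MERTK (-0.14) only just, and it came to -0.13 on rescaled scanner files and -0.09 under 75th percentile scaling, both within them. MRC1 was within them with normexp background correction (-0.33). The share of all genes beyond 2 spot SDs was not counted, so the count of 10 does not set the receptors apart. The signs of all 10 held under 9 other ways of scaling, filtering or choosing probes. The filters and probe choices could not change the 9 receptors with 1 probe, all above background, so only the scalings and background correction tried their signs. The size of the differences did depend on scaling. The median of all genes was -0.51 when the arrays were not normalized to each other and -0.66 when they were scaled to the spike-in RNAs, and the receptor median was then -0.98 and -1.13. Relative to all genes, the receptor median was lower by a similar amount in each case (-0.57 with the authors' values, -0.47 without normalization and -0.47 with spike-ins). Spike-in scaling shifts each unnormalized array by a constant, so the -0.47 values had to be alike apart from the set of genes compared. Among all called genes, 53.5% were higher with the authors' values, 10.1% without normalization and 5.82% with spike-ins. In RNA from a whole culture, fewer cells with a transcript and less of it per cell cannot be told apart.

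**Figure D1:**
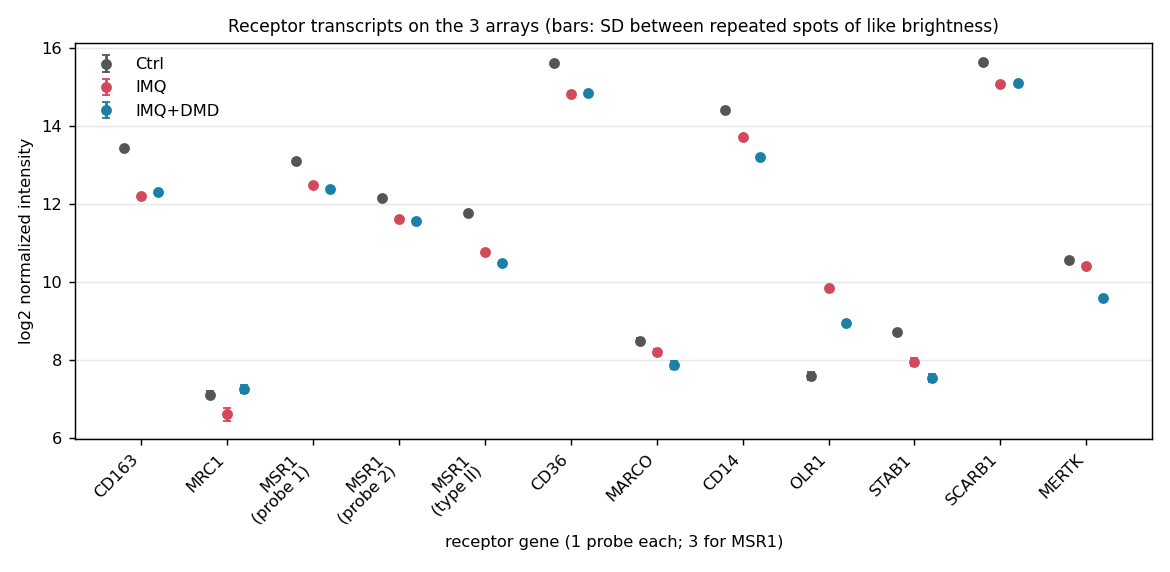
Log2 normalized intensity of each receptor probe well above background on the Ctrl (grey), IMQ (red) and IMQ+DMD (blue) arrays, 1 array per group, with bars for the SD between repeated spots of like brightness. OLR1 is the gene whose IMQ point lies above Ctrl, and points of different genes are not to be set against each other because probes differ in response.

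OLR1, the lectin-like receptor for oxidized low-density lipoprotein, read 192 in Ctrl, 918 in IMQ and 493 in IMQ+DMD. The IMQ array was the highest and the Ctrl array the lowest, and each step in that order was beyond 2 spot SDs. IMQ was 4.77-fold above Ctrl (log2 difference 2.26, spot SD 0.11), and the alternatives gave log2 differences from 1.70 to 2.30. With DMD, OLR1 was 1.86-fold lower than with IMQ alone (-0.90, spot SD 0.08, range -0.93 to -0.72), below the 2-fold threshold under each of them. It was still 2.57-fold above Ctrl (1.36, spot SD 0.12), which is 60.3% of the log2 difference between IMQ and Ctrl. Against Ctrl it was just under 2-fold without normalization (0.95) and with spike-ins (0.98).

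CD163, the haemoglobin scavenger receptor, read 11063 in Ctrl, 4753 in IMQ and 5045 in IMQ+DMD. Both treated arrays were far below Ctrl. IMQ was 2.33-fold below Ctrl (-1.22, spot SD 0.06, range -1.72 to -1.13), and IMQ+DMD was 2.19-fold below Ctrl (-1.13). The treated arrays differed by 0.09 (spot SD 0.06), within 2 spot SDs, and this small difference was below 0 under 75th percentile scaling and without normalization. Among the 10 receptors CD163 had the most negative difference after IMQ, and with the authors' values no return toward Ctrl beyond the spot noise was seen with DMD.

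CD14, the lipopolysaccharide co-receptor, read 21875 in Ctrl, 13399 in IMQ and 9436 in IMQ+DMD. It stepped down from array to array, by -0.71 after IMQ and by a further -0.51 with DMD (spot SD 0.06 each). Each step was under 2-fold with the authors' values, but the step after IMQ was past it without normalization (-1.02) and with spike-ins (-1.17). The sum of both steps was a 2.32-fold lower reading in IMQ+DMD than in Ctrl (-1.21, range -1.67 to -1.21). STAB1, or stabilin-1, which takes up acetylated lipoproteins and matrix fragments, had the same order at a dim signal. Its readings were 419, 248 and 186, with differences of -0.76 after IMQ (spot SD 0.12) and -0.41 with DMD (spot SD 0.14). With spike-in scaling, which moved the median of all genes to 0.24 in this comparison, the second difference was -0.06, or -0.31 relative to all genes (-0.41 with the authors' values). IMQ+DMD was 2.25-fold below Ctrl for STAB1 (-1.17, range -1.50 to -0.90), and was under 2-fold with normexp background correction.

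With the authors' values, CD163, CD14 and STAB1 were the receptors at least 2-fold below Ctrl in IMQ+DMD. The 250 bases before their annotated starts are therefore shown, from RefSeq on GRCh38.p14. Such an entry was found for 6 of the 10 receptors, and MRC1, MSR1, OLR1 and SCARB1 are named only. Capitals mark matches, on either strand, to AP-1 (TGANTCA), PU.1 (GAGGAA), C/EBP (TTNNGCAA), CRE (TGACGTCA) or NF-kB (its usual 10-base consensus). Each line reads 5′ to 3′ on the gene's strand and ends at the base before the start. The windows are chr12:7503778-7504027 (CD163, minus strand), chr5:140633176-140633425 (CD14, minus strand) and chr3:52495088-52495337 (STAB1, plus strand).
CD163: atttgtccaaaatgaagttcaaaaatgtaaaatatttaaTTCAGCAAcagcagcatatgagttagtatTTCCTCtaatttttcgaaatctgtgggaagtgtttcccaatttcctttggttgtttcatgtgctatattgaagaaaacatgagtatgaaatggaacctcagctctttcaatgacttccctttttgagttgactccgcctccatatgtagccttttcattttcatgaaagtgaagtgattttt
CD14: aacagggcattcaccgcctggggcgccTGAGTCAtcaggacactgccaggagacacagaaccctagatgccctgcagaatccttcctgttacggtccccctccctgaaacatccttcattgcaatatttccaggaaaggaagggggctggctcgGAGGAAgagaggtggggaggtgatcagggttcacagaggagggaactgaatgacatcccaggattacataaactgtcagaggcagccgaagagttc
STAB1: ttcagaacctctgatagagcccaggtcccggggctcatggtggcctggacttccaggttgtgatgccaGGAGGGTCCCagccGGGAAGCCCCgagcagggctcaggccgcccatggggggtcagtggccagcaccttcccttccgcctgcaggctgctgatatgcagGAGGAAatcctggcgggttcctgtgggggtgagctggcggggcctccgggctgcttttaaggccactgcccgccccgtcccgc
The CD163 window holds a C/EBP match that begins 211 bases before the start and a PU.1 match at 182. The CD14 window holds an AP-1 match at 223 and a PU.1 match at 96. The STAB1 window holds NF-kB matches at 182 and 168 and a PU.1 match at 83. PU.1 letters are thus in all 3 windows, but they also occur in 23.6% of the 35116 human windows of this length. The share is 6.57% for AP-1, 9.05% for C/EBP, 9.96% for NF-kB and 1.65% for CRE, which matched none of the receptor windows. Neither the MARCO nor the MERTK window held any of these letters, and CD36, with 6 annotated starts, had PU.1 letters at 3 of them and AP-1 letters at 1. Matches to such short letters describe the sequence and do not show binding.

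CD36 and SCARB1, related membrane proteins that carry fatty acids, oxidized lipoproteins and cholesterol, were both lower after IMQ and near the same level with and without DMD. CD36 read 50039 in Ctrl, 29126 in IMQ and 29749 in IMQ+DMD. SCARB1 read 51092, 34366 and 35309. Both treated arrays were below Ctrl for each gene, and the treated arrays lay close together. After IMQ the differences were -0.78 for CD36 and -0.57 for SCARB1 (spot SD 0.06 and 0.05), or 1.72-fold and 1.49-fold. With DMD they moved by 0.03 and 0.04, within the spot noise, and both signs turned under 75th percentile scaling and without normalization.

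MSR1 encodes the class A scavenger receptor, whose type II form lacks the cysteine-rich end domain of type I. On 3 of its probes the signal was well above background. The probe used for the gene read 8804 in Ctrl, 5785 in IMQ and 5396 in IMQ+DMD (-0.61 after IMQ and -0.10 with DMD), and a further probe read 4563, 3139 and 3022 (-0.54 and -0.05). Both were designed on the RefSeq transcript NM_138715, and neither was shown to read all forms of the gene. The probe designed on the transcript of the type II form (RefSeq NM_002445) read 3519, 1736 and 1444, differences of -1.02 after IMQ and -0.27 with DMD. It was lower after IMQ than either of the others, by -0.41 and -0.48 (spot SD 0.09), and was itself 2.03-fold below Ctrl, although the probe used for the gene was not called. In IMQ+DMD against Ctrl this gap was -0.58 and -0.69. The remaining probe was not well above background on any array. Each of these probes has 1 spot, so the gap rests on 1 spot per array.

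MARCO, a class A receptor that binds bacteria and particles, read 359 in Ctrl, 295 in IMQ and 235 in IMQ+DMD. It was slightly lower at each step, by -0.28 (spot SD 0.09) and -0.33 (spot SD 0.12), and the second step came to -0.02 with spike-in scaling, which is -0.27 relative to all genes (-0.33 with the authors' values). MRC1, the mannose receptor, read 139, 97.5 and 152, a dim signal with a wide spot SD. IMQ was the lowest array (-0.51 against Ctrl, spot SD 0.19), and IMQ+DMD was 1.56-fold above IMQ (0.64, spot SD 0.19, range 0.44 to 1.08). MRC1 was the receptor whose IMQ+DMD reading was back at that of Ctrl within the noise (0.13, spot SD 0.14), and this last sign turned without normalization and with spike-ins, where the median of all genes was -0.32 and -0.29. Relative to all genes the MRC1 difference was 0.13 in both, which differ by a constant per array and so had to be alike, and 0.09 with the authors' values.

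MERTK read 1510 in Ctrl, 1369 in IMQ and 771 in IMQ+DMD. The IMQ array was near Ctrl (-0.14, spot SD 0.07), and the IMQ+DMD array stood below both. Against IMQ the difference was -0.83 (1.78-fold, spot SD 0.07, range -0.91 to -0.70), and against Ctrl -0.97 (1.96-fold, range -1.42 to -0.91). The difference from Ctrl was past 2-fold without normalization (-1.42) and with spike-ins (-1.38). Both steps were beyond 2 spot SDs, and the larger one was between IMQ and IMQ+DMD.

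With DMD against IMQ alone, none of the 10 receptors was called (0 higher and 0 lower at 2-fold), where 1.18% of the 30700 named genes compared were higher and 1.23% lower. The median receptor difference was -0.21, beside 0.00 over all genes. Of the differences, 6 were beyond 2 spot SDs, with MARCO, CD14, OLR1, STAB1 and MERTK lower and MRC1 higher. The share of all genes beyond that limit was not counted here either, so this count does not set the receptors apart. MARCO and STAB1 were within 2 spot SDs under 75th percentile scaling (-0.23 and -0.27), without normalization (-0.20 and -0.24) and with spike-ins (-0.02 and -0.06). The other 4, CD163, MSR1, CD36 and SCARB1, differed by 0.10 or less in size with the authors' values. MSR1 was beyond 2 spot SDs under 75th percentile scaling (-0.25), without normalization (-0.23) and with the mean of its probes (-0.23). So were SCARB1 under 75th percentile scaling (-0.11) and CD163 with spike-ins (0.15, where the median of all genes was 0.24). At 1.5-fold, 2 receptors were lower (OLR1 and MERTK) and 1 higher (MRC1), where 5.42% of all named genes were lower and 6.62% higher. OLR1 and MERTK were also below the middle 95% of all genes, which began at -0.80. The balance of all called genes in this comparison moved with scaling, since 49.0% were higher with the authors' values, 86.9% with 75th percentile scaling, 88.6% without normalization and 96.0% with spike-ins.

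IMQ+DMD against Ctrl uses the same arrays as the comparisons above, so it adds no independent measurement. On its own, 8 receptors were lower and 2 higher, with a median of -0.73 beside 0.05 over 32627 genes. At 2-fold, 3 were lower (CD163, CD14 and STAB1) and 1 higher (OLR1), beside 4.91% of all genes lower and 3.07% higher. Among all called genes, 38.5% were higher with the authors' values, 12.9% without normalization and 14.6% with spike-ins.

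**Figure D2:**
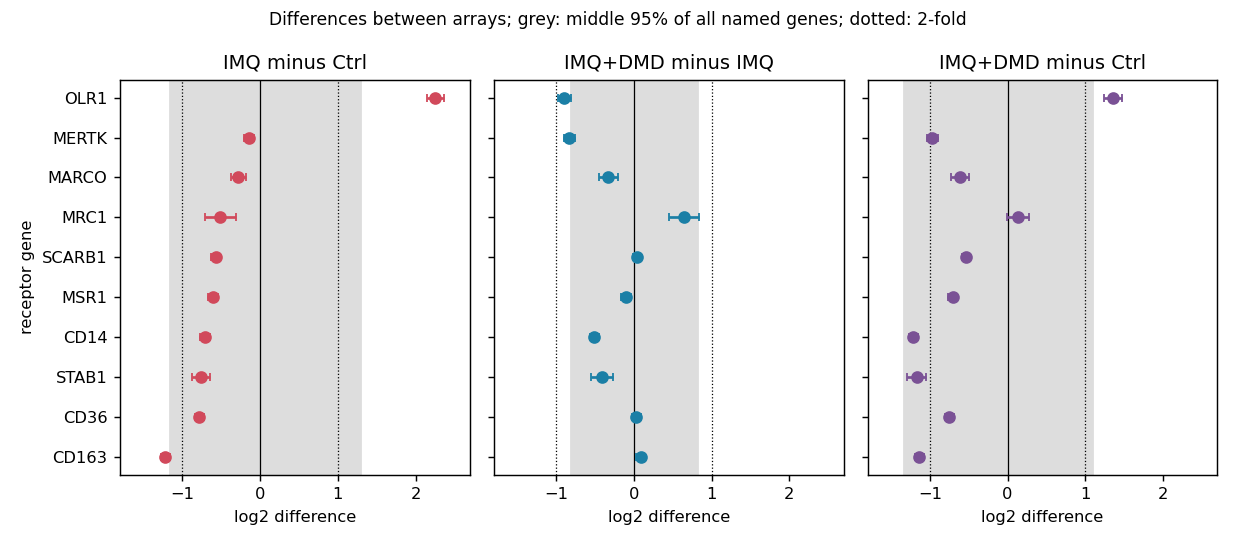
Log2 differences of the 10 receptor genes (points, with the spot SD of the difference) for IMQ minus Ctrl, IMQ+DMD minus IMQ and IMQ+DMD minus Ctrl, with the middle 95% of all named genes in grey and 2-fold as dotted lines. OLR1 at 2.26 and CD163 at -1.22 lie outside the grey band after IMQ, and in IMQ+DMD minus IMQ OLR1 at -0.90 and MERTK at -0.83 lie just outside it, with every receptor within 1 log2 unit of 0.

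**Figure D3:**
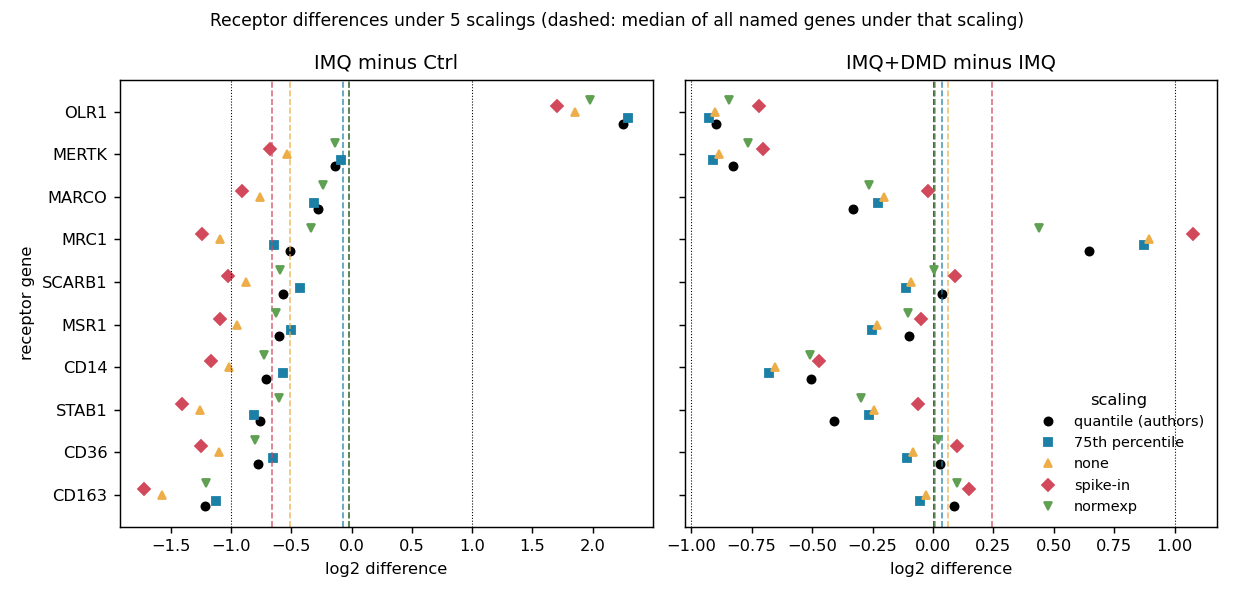
Log2 differences of the receptor genes under 5 scalings of the arrays, with the median of all named genes under each scaling as a dashed line of the same color and 2-fold as dotted lines. Without normalization and with spike-in scaling the receptors move down after IMQ together with all genes (dashed lines at -0.51 and -0.66), while OLR1 stays above 1 log2 unit.

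Genes that act with these receptors were read from lists of other genes. Other scavenger and mannose family receptors showed no common shift. Of 14 compared after IMQ, 7 were higher and 7 lower, with a median of -0.02, and none was called in the comparisons (0 higher and 0 lower). These values are from the probe that stands for each gene. CXCL16, named after its values were seen, differed by 0.51 after IMQ on that probe but by 1.20 on its other probe, past 2-fold. MRC2, the collagen-binding relative of MRC1, differed by -0.15 after IMQ and by -0.01 with DMD.

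Genes for the uptake of apoptotic cells, the process MERTK serves, went in both directions. After IMQ 6 were higher and 8 lower of 14, with a median of -0.14. The phosphatidylserine receptor TIMD4 was 2.26-fold higher (from 122 to 276, and 224 with DMD) and the integrin subunit ITGAV 2.05-fold higher (4852, 9943 and 9676). The lipid sensor TREM2 was 2.02-fold lower (30462, 15070 and 16581), and so, at a dim signal, was DOCK1, a Rac activator of engulfment (72.2, 34.9 and 71.5). DOCK1 was the gene of this list called with DMD against IMQ, 2.05-fold higher (1.03, spot SD 0.27, range 0.43 to 1.56). These folds after IMQ lie close to the threshold, and the alternatives took each of them under it. In log2 units the smallest were 0.53 for TIMD4, 0.54 for ITGAV (with spike-in scaling) and -0.87 for TREM2. The DOCK1 difference after IMQ ranged from -1.85 to -0.42, and the smallest size in each comparison was within 2 spot SDs.

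Of the 8 genes in the list for CD14 partners, 7 were lower after IMQ, where 52.4% of all named genes were below 0. The remaining 1, TLR2, was higher (0.91), and the list median was -0.10. Of the lower ones, TLR6 (-0.01), LBP (-0.09), TLR1 (-0.09) and TIRAP (-0.10) were within 2 spot SDs of no difference. CD180, a TLR4-like receptor, was 4.72-fold lower (329 in Ctrl, 69.6 in IMQ and 107 in IMQ+DMD). TLR4 and its partner LY96, named after their values were seen, differed by -0.93 and -0.71. With DMD their differences from IMQ were -0.06 and 0.15, in contrast to -0.51 for CD14, and the sign for TLR4 turned with spike-in scaling. No gene of this list was called with DMD.

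In the list for haem and iron handling beside CD163, HMOX1 (haem oxygenase 1) read 45882 in Ctrl, 104742 in IMQ and 171151 in IMQ+DMD. It was 2.28-fold higher after IMQ (log2 difference 1.19, range 0.74 to 1.34), opposite in direction to CD163. With DMD it was a further 1.63-fold higher. Of the 13 genes, 7 were higher after IMQ (median 0.13, below 0 without normalization and with spike-ins). With DMD, 10 were higher than with IMQ alone (median 0.19, range 0.08 to 0.28). Of all named genes, 52.4% were below 0 after IMQ and 49.4% with DMD. Their median with DMD rose to 0.24 with spike-ins. FTH1, the ferritin heavy chain, differed by 0.36 after IMQ and -0.03 with DMD. SLC48A1, a haem transporter named after its values were seen, differed by 0.98 with DMD.

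Among 17 genes that regulate or handle lipid taken up by CD36, SCARB1, MSR1 and OLR1, 10 were higher and 7 lower after IMQ, with a median of 0.04 that fell below 0 under 3 of the alternatives. The lipid-activated nuclear receptor PPARD was 3.62-fold higher (4158, 15033 and 10410 in Ctrl, IMQ and IMQ+DMD) and the cholesterol exporter ABCA1 2.75-fold higher (2926, 8039 and 8945). Lipoprotein lipase, LPL, was 2-fold lower (66971, 33438 and 30792). Under the alternatives ABCA1 (0.95 to 1.54) and LPL (-1.42 to -0.83) could fall under 2-fold, and PPARD (1.38 to 1.98) did not. APOE differed by 0.04. With DMD none of the 17 was called against IMQ.

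Of 7 genes for the shedding of receptors such as CD163 and MERTK from the cell surface, TIMP3, an inhibitor of the sheddase ADAM17, was 2.25-fold higher after IMQ (1317, 2964 and 1995). Its log2 difference ranged from 0.64 to 1.24 under the alternatives. RHBDF2, which carries ADAM17 to the surface, differed by 0.77 after IMQ and by -0.28 with DMD. The list median was 0.03 after IMQ and -0.24 with DMD, and both signs turned with spike-in scaling. The clathrin endocytosis machinery was lower by a little, with 14 of 20 genes below 0 after IMQ (median -0.25) and 13 below 0 with DMD (median -0.09, above 0 with spike-ins), and none was called. Its adaptor subunit AP2S1 differed by -0.43 after IMQ and by 0.01 with DMD.

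**Figure D4:**
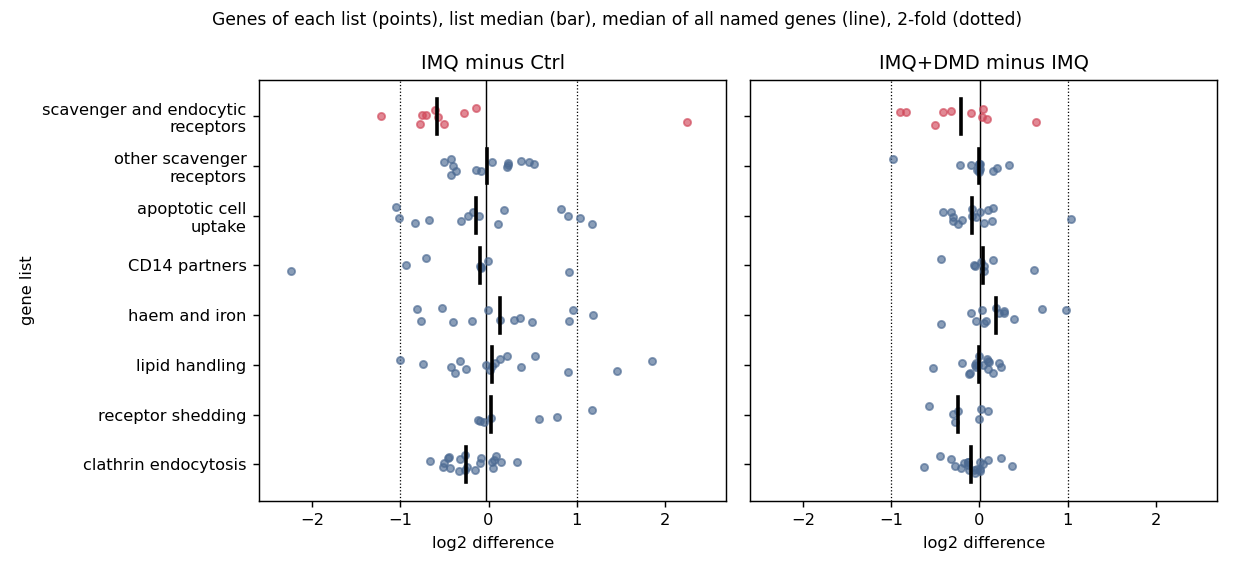
Log2 differences of each gene (points) in the receptor list (red) and in 7 lists of genes that act with these receptors (blue), for IMQ minus Ctrl and IMQ+DMD minus IMQ, with the list median as a bar, the median of all named genes as a line and 2-fold as dotted lines. The receptor median at -0.59 after IMQ lies left of the line, and the medians of the other lists lie between -0.25 and 0.13.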

How the data were processed

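RNA of PMA-treated THP-1 macrophages was measured on 3 one-color Agilent 60-base arrays (Ctrl, IMQ and IMQ+DMD, 1 each). The authors deposited the scanner output of each array (Feature Extraction 10.5.1.1, background-corrected intensity) and a table of raw and quantile-normalized intensity per probe. The table's raw intensity equalled the scanner's within 0.1% for all 57901 single-spot probes. Its 3 columns of detection marks were not used. Probe positions are those of the scanner files, on hg19.

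The authors' normalized intensity was taken to log2 and subtracted between arrays. Where a gene had several probes, the one brightest on average (mean log2) stood for it. It was compared where well above background on the brighter array, the dimmer array being set to no less than the lowest value of probes above background, and called at 2-fold. With 1 array per group no test was run, and precision is set by that number of arrays. The spot SD came from 300 probes with 10 spots. The alternatives (11 in all) covered scaling, background correction, filters, thresholds and the choice of probe. The 2075 control spots and the spots marked as outliers (52, 73 and 82 in Ctrl, IMQ and IMQ+DMD) were left out when scanner files were rescaled. Counting steps were tested on simulated data.

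The receptors and all gene lists were chosen with earlier results of these data known. Of 130 list genes, 127 were found by name, 1 of them by an older symbol. From each list, every gene called in IMQ against Ctrl or in IMQ+DMD against IMQ and the gene with the brightest probe are named. Versions were R 4.3.3, limma 3.58.1, Python 3.11.15, numpy 2.4.6, pandas 2.3.3 and matplotlib 3.10.9.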

Additional observations from a re-analysis of the deposited data

How the results depend on the processing

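No paired analysis was possible because each group has 1 array. No replicate could be left out for the same reason. Of 66 counts of called receptors under the alternatives, 52 stayed within 1.5 times the reported count. After IMQ, the count of receptors lower than Ctrl (1 as reported) was 5 at 1.5-fold, 0 at 4-fold, 7 with spike-in scaling and 5 without normalization. For IMQ+DMD against Ctrl, the count lower (3 as reported) was 7 at 1.5-fold, 0 at 4-fold, 6 without normalization and 6 with spike-ins, and the count higher (1, OLR1) was 0 at 4-fold, 0 without normalization and 0 with spike-ins. For IMQ+DMD against IMQ, the count lower (0 as reported) was 2 at 1.5-fold, and the count higher (0 as reported) was 1 at 1.5-fold and 1 with spike-ins, MRC1 in each case. Of 270 receptor differences, 262 kept their sign and 193 moved by no more than the spot SD. Filters and probe choices could not move the 9 receptors with 1 probe, so part of these counts and of the 52 above was fixed in advance. Over all genes, background correction by normexp left 584 higher and 606 lower after IMQ (1290 and 1123 as reported) and 20 and 30 with DMD (362 and 377). Scaling to spike-ins gave 456 and 7381 after IMQ and 2472 and 103 with DMD. Without normalization the counts were 567 and 5033, and 1321 and 170, and with 75th percentile scaling 1210 and 183 with DMD. With no filter and no floor they were 2608 and 2736, and 1769 and 1445, and with both arrays required above background 250 and 224 with DMD. For IMQ+DMD against Ctrl (1002 and 1601 as reported), they were 521 and 813 with normexp, 497 and 3349 without normalization, 529 and 3102 with spike-ins and 2163 and 2671 with no filter. At 1.5-fold the counts in these 3 comparisons were 3286 and 3327, 2031 and 1665, and 3187 and 3787, and at 4-fold 284 and 112, 5 and 31, and 206 and 217. The causes of these shifts were not tested. MRC1 has the widest spot SD of the receptor genes in IMQ against Ctrl (0.19).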
